A study of Homo sapiens with 12 samples.

Results

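The transcripts of complement components and complement regulators were followed in 2 human ovarian cancer lines, untreated and exposed to ascites, a peritoneal fluid of patients with this cancer. The genes were C3, C1R, C1S, CFB, CFI, SERPING1, CD46, CD55 and CD59, taken by name as complement components and regulators with earlier results of these data known. Of these 9 genes, 8 were found among the 19251 genes listed in every library, and SERPING1 is not analysed here. CAOV3 is labelled as a high grade serous line and TOV21G as a clear cell line. Both are labelled as wild type and epithelial. Each line contributed 3 untreated cultures and 3 cultures kept for 16 h with 10% ovarian cancer ascites (150 µL added to 1.5 mL of medium), and all wells were seeded with 250000 cells in medium with 10% fetal bovine serum. The labels give no addition to the untreated wells and do not say how many patients the ascites came from or whether its cells had been removed. Nothing in the labels says that the 3 libraries of a group came from separate experiments, so p-values measure the spread between these libraries, which may be technical.

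Complement is a cascade of plasma proteins that tags and lyses cells. C1r and C1s are the paired serine proteases of the C1 complex, which starts the classical pathway. C3 is the protein on which all routes converge, and factor B (CFB) provides the protease of the alternative pathway C3 convertase. Host cells are shielded by soluble factor I (CFI), a protease that cuts C3b, and by the membrane proteins CD46 (a cofactor for factor I), CD55 (which speeds the decay of convertases) and CD59 (which blocks assembly of the membrane attack complex). Tumour cells commonly carry the membrane regulators, and several complement genes are known targets of interleukin-6, interferon and NF-kB signalling.

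The promoters of CFI and CFB are shown because CFI had the largest log2 change with ascites among these genes, while CFB, chosen after its matches were seen, had the most motif matches in a single stretch. Both are the 250 bases before the transcription start in RefSeq on GRCh38.p14, written 5′ to 3′ on the gene's strand. The CFI stretch is chr4:109802000-109802249 (minus strand) and the CFB stretch chr6:31945845-31946094 (plus strand). Capitals mark matches to the motifs searched.
CFI: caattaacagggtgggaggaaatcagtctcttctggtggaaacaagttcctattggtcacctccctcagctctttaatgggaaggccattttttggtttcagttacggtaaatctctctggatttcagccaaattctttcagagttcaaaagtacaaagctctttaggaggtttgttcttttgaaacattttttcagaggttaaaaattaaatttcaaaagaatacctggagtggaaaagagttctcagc
CFB: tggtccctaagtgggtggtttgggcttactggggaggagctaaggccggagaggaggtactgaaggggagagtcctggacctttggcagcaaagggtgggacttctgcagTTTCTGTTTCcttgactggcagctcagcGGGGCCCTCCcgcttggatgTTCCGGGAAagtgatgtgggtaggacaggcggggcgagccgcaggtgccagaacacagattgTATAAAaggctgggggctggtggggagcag
Searched on both strands were a STAT motif (TTCNNNGAA), a C/EBP motif (TTGCNNAA), the NF-kB consensus, an interferon response motif (TTTC-NN-TTTC) and a TATA motif (TATAAA). The CFI stretch held none of them and had a GC content of 38%, against a median of 58% over all 35116 RefSeq promoter stretches. The CFB stretch held 4 that did not overlap, first the interferon motif at bases -140 to -131 from the start, then the NF-kB match at -112 to -103, the STAT motif at -92 to -84 and the TATA motif at -30 to -25. Among all such stretches 6.57% held the STAT motif, 9.05% the C/EBP motif, 9.96% the NF-kB consensus, 3.02% the interferon motif and 10.7% the TATA motif. Entries were found for 6 of the 8 genes. Upstream of C1R, 1 of 2 starts had a STAT and a C/EBP match and the other a C/EBP match. Of 4 CD59 starts, 2 shared a STAT match and 1 had 2 C/EBP matches, and no motif was found upstream of CD46 or CD55. A match describes letters only and is not evidence of binding.

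Expression was measured by RNA sequencing and deposited as a normalised read count per gene, that is, reads divided by a factor for each library. Libraries held 26697609 to 34491304 reads. Adjusted p-values are from limma, fitted over all 12 libraries on log2(normalised count + 1) and adjusted over 17616 tested genes, unless another test is named. Genes with an adjusted p under 0.05 are referred to as called. Some libraries of 1 group differed widely at single genes: the noncoding transcript KCNQ1OT1 ranged from 95.4 to 1511 normalised counts over the TOV21G libraries and from 614 to 813 over those of CAOV3. Deviations of libraries from their group means were also compared over the more abundant genes. Correlations between control and ascites libraries ran from -0.42 to 0.46 in TOV21G and from -0.11 to 0.10 in CAOV3. Whether this bears on the TOV21G comparisons was not tested. The epithelial keratin genes KRT8 and KRT18 were present in every library, and CDH1 (E-cadherin) was low in TOV21G, at 6.29 to 17.3 normalised counts. Because these are bulk libraries, more cells with a transcript and more transcript per cell cannot be told apart.

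The untreated lines carried different complement transcripts. TOV21G was high in C3 and had more C1S, CFB and C1R, while CAOV3 had more CD55 and CD59. CD46 was close to equal. All 8 genes were called between the lines, 5 higher in TOV21G and 3 higher in CAOV3. But 82.2% of all tested genes were called in this comparison (40.8% higher and 41.4% lower in TOV21G), so that share is not particular to complement. C1S and CFB would not have entered the test without their TOV21G libraries, nor CFI without its CAOV3 ascites libraries. That favoured the directions seen at these genes. The sizes of the differences varied more than the calls.

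**Figure D1:**
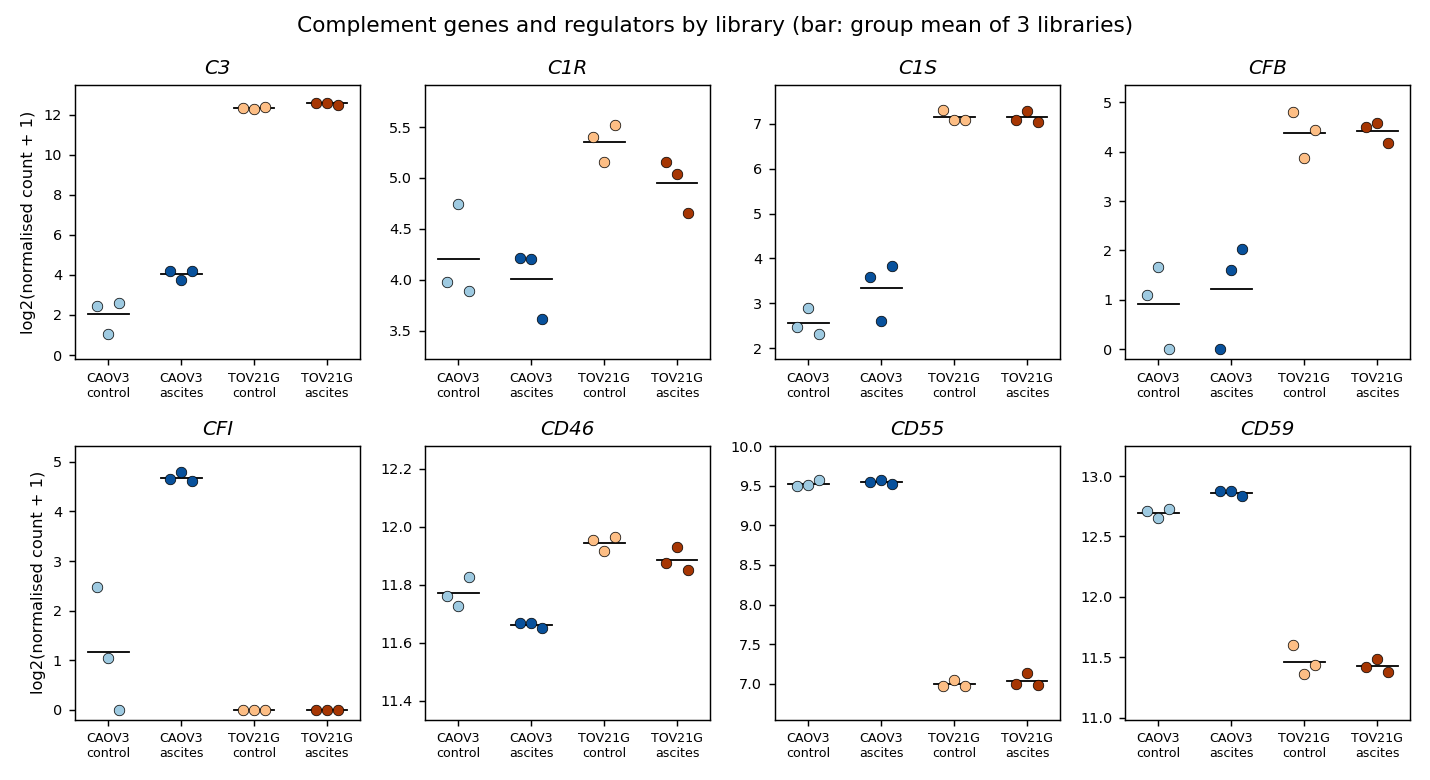
Values of the 8 genes in each of the 12 libraries, as log2(normalised count + 1), in 4 groups of 3 libraries; bars are group means of these log2 values and each panel has its own vertical scale. C3, C1S and CFB lie far higher in TOV21G, CD55 and CD59 higher in CAOV3, and CFI is above 20 normalised counts in the 3 CAOV3 ascites libraries and at 0 in every TOV21G library.

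C3 (ENSG00000125730, chromosome 19, 6677704 to 6730562, minus strand, GENCODE 29 on GRCh38) had 4.54, 1.08 and 4.95 normalised counts in the CAOV3 controls. The TOV21G controls had 5148, 4976 and 5386. The groups were far apart, with a log2 difference of 10.30 (SE 0.30, adjusted p 8.86e-13). The CAOV3 mean rests on 10 reads in all, so the ratio from reads was 1462 with a 95% counting interval of 795 to 3049 (exact conditional binomial).

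The neighbouring protease genes C1S (ENSG00000182326, chromosome 12, 6988259 to 7071032, plus strand) and C1R (ENSG00000159403, chromosome 12, 7080199 to 7092607, minus strand) face each other with their 3′ ends 9166 bases apart. C1S had 4.54, 6.45 and 3.96 normalised counts in the CAOV3 controls and 158, 135 and 134 in the TOV21G controls. That is 28.6-fold higher in TOV21G (log2 difference 4.60, SE 0.28, adjusted p 2.46e-09), with no overlap. C1R had 14.8, 25.8 and 13.9 in the CAOV3 controls and 41.2, 34.6 and 44.9 in the TOV21G controls. It was 2.22-fold higher in TOV21G (log2 difference 1.15, SE 0.27, adjusted p 0.00137), so the genes of this protease pair differed between the lines by unequal amounts. CFB (ENSG00000243649, chromosome 6, 31945650 to 31952084, plus strand) had 1.13, 2.15 and 0 against 27.1, 13.6 and 20.6 (log2 difference 3.46, SE 0.52, adjusted p 2.88e-05). Only 3 reads lie behind the CAOV3 value, and the ratio from reads was 19.2 (95% counting interval 6.26 to 95.6).

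Among the membrane regulators, CD55 (ENSG00000196352, chromosome 1, 207321376 to 207386804, plus strand) had 719.5, 730.4 and 763 normalised counts in the CAOV3 controls and 125, 131 and 125 in the TOV21G controls. The TOV21G level was lower in all 3 libraries (log2 difference -2.53, SE 0.07, adjusted p 3.11e-13), which is 5.82-fold higher in CAOV3. CD59 (ENSG00000085063, chromosome 11, 33703010 to 33736491, minus strand) had 6721, 6423 and 6789 against 3099, 2626 and 2769, and was 2.35-fold higher in CAOV3 (log2 difference -1.23, SE 0.05, adjusted p 6.8e-11). CD46 (ENSG00000117335, chromosome 1, 207752057 to 207795513, plus strand) lies 365252 bases from CD55 in the same regulator cluster, yet it differed in the other direction. It had 3474, 3388 and 3628 in the CAOV3 controls and 3964, 3867 and 3992 in the TOV21G controls, a difference of 12.7% (log2 difference 0.17, SE 0.04, adjusted p 0.000588).

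CFI (ENSG00000205403, chromosome 4, 109740694 to 109802179, minus strand) was near or at the limit of detection in both untreated lines, with 4.54, 1.08 and 0 normalised counts in the CAOV3 controls and 0 in every TOV21G control. No reads in the 3 TOV21G control libraries allows up to 1.00 normalised count. The difference was called (log2 difference -1.17, adjusted p 0.0327) on 5 reads against none. It was not called in 8 of 20 alternatives, where adjusted p-values over all 20 ran from 0.000935 to 0.17.

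Divided by the exon length of each gene, the order of levels differed between the lines. In untreated CAOV3 it was CD59 (641 ± 18.8 normalised counts per kb, SD, n = 3), CD46 (402 ± 13.96) and CD55 (125 ± 3.83), then C1R (3.08 ± 1.13) and C1S (0.771 ± 0.202). C3, CFI and CFB followed, and their libraries overlapped in that order. In untreated TOV21G C3 came first (621 ± 24.7), followed by CD46 (453 ± 7.55) and CD59 (273 ± 23.4). C1S (22.0 ± 2.13) and CD55 (21.5 ± 0.622) overlapped, and C1R (6.83 ± 0.884), CFB (4.09 ± 1.35) and CFI (0) were lowest. The summed normalised count of the 3 membrane regulators was 10541 to 11181 in CAOV3 controls and 6624 to 7188 in TOV21G controls.

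The wider pathway differed between the untreated lines in both directions. A list of 57 complement genes had 28 listed and 23 tested, of which 12 were higher and 10 lower in TOV21G, with a median log2 difference of 0.17 against -0.02 over all tested genes. All 4 genes of C3 and the alternative pathway were higher in TOV21G, namely C3, CFB, CFD (factor D) and CFP (properdin). Among all tested genes 40.8% were higher. CFB and CFP entered the test only through TOV21G libraries, which favoured that direction, so only C3 and CFD can be set beside that share. All 3 tested soluble regulators, CFI, VTN and CLU, were lower in TOV21G, where 41.4% of all tested genes were. CFI and VTN entered the test only through CAOV3 libraries, which favoured that direction, so only CLU can be set beside that share. The CFI call, on 5 reads against 0, was lost in 8 of 20 alternatives.

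**Figure D2:**
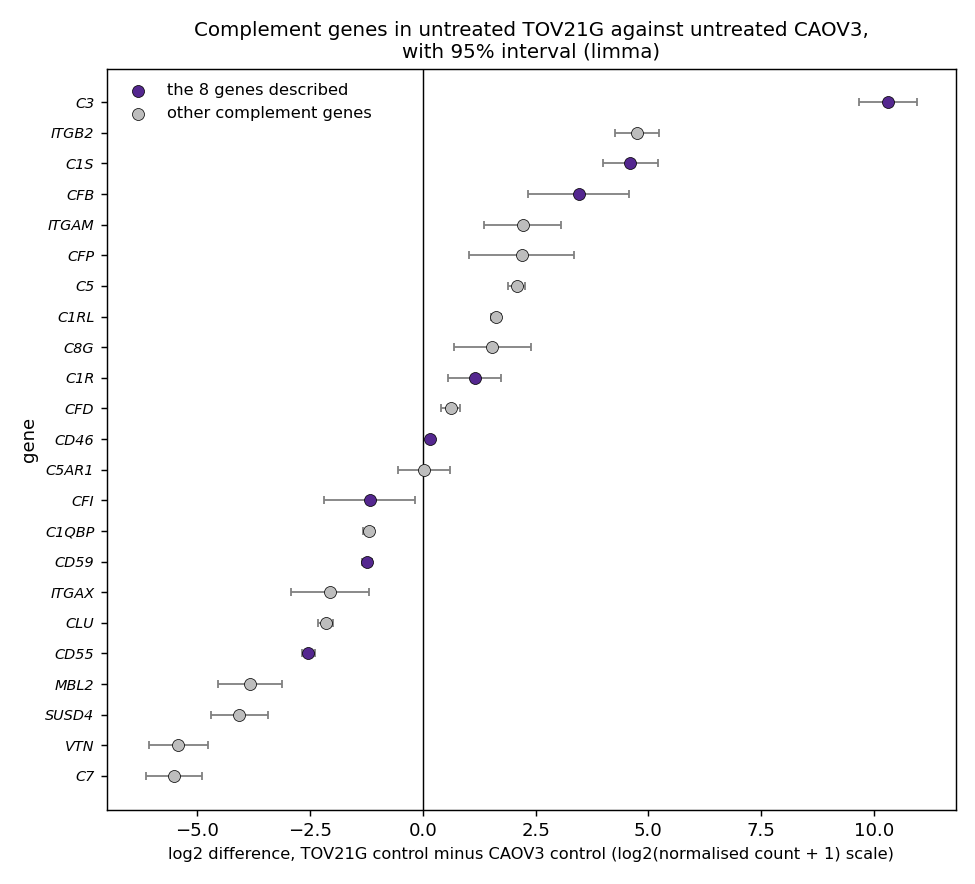
Log2 difference between untreated TOV21G and untreated CAOV3 for the 23 tested complement genes (points) with 95% intervals from limma; dark points are the 8 genes described, and positive values are higher in TOV21G. C3 stands at 10.30 at the top, and VTN, the vitronectin gene, is among the lowest at -5.41.

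Other complement genes set the lines apart as well. The terminal component gene C5 (524 ± 36.4 in TOV21G controls against 123 ± 6.18), the C1R paralogue C1RL (1480 ± 27.8 against 481 ± 21.5) and ITGB2, the beta chain of the complement receptors CR3 and CR4 (397 ± 67.9 against 14.2 ± 5.39), were higher in TOV21G. Vitronectin (VTN) and clusterin (CLU), fluid-phase inhibitors of the terminal complex, were higher in CAOV3. C1QBP, which encodes a protein that binds C1q, was also higher in CAOV3. VTN had 122 ± 18.8 normalised counts there and 1.96 ± 0.813 in TOV21G, and CLU 2281 ± 47 and 515 ± 62.1. For C1QBP the values were 12830 ± 412 in untreated CAOV3 and 5636 ± 431 in untreated TOV21G. Each of these 6 differences was called, and the smallest log2 size among them was at C1QBP (-1.19). C1RL overlaps C1R on the same strand in the annotation, so the division of reads between them is uncertain. The same limit holds for C1S with EMG1 and for CFB with C2 and the gene model AL645922.1. It also holds for CD59 with the gene model AL049629.2 and for CD46 with the pseudogene CDCA4P4.

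In CAOV3 the ascites cultures had more CFI and more C3 transcript than the untreated cultures, both starting from a few reads. Of the 8 genes 2 were called, both higher, where 1.73% of all tested genes were called (0.636% higher). CFI entered the test only through its CAOV3 ascites libraries and had to be higher there, so the count that can be set beside that share is 1 of the other 7, C3. The median log2 change of the 8 genes was 0.23, and that of all tested genes was -0.0021. CFI is part of the first median, so nothing is read from this comparison.

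CFI went from 4.54, 1.08 and 0 normalised counts in the controls to 24.1, 26.6 and 23.5 in ascites. The groups did not overlap, but as CFI entered the test only through these ascites libraries, they could not have done so. The 3 ascites libraries were close to each other. The log2 change was 3.51 (SE 0.47, adjusted p 0.00158), and from 71 against 5 reads the ratio was 13.96 (95% counting interval 5.71 to 44.3). In the fit over both lines the spread was shared with the TOV21G libraries, in which CFI was 0 throughout. The limma fit of CAOV3 alone gave an adjusted p of 0.0632. Over 19 alternatives the adjusted p ran from 5.89e-05 to 0.0632, with 18 under 0.05. Most of these alternatives kept the TOV21G libraries in the fit, and 12 of them left out a single library of either line. CFI overlaps over most of its length a gene model on the same strand, AC126283.2, which is not analysed here, and reads shared between them cannot be assigned with certainty.

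C3 went from 4.54, 1.08 and 4.95 normalised counts in CAOV3 controls to 17.5, 12.3 and 17.4 in ascites. All 3 ascites libraries lay above the controls, but far below every TOV21G library. The log2 change was 2.01 (SE 0.30, adjusted p 0.00305), and from 45 against 10 reads the ratio was 4.42 (95% counting interval 2.20 to 9.85). In the fit over both lines the spread was shared with the TOV21G libraries, where C3 was far higher. With CAOV3 fitted alone in limma the adjusted p was 0.0961, and over 20 alternatives it ran from 0.000189 to 0.0961, with 19 under 0.05. Most of these alternatives kept the TOV21G libraries in the fit, and 12 of them left out a single library of either line. The annotation has C3 overlapping the gene GPR108 at its 5′ end on the same strand, and GPR108 was at 866 and 905 normalised counts in the CAOV3 control and ascites groups.

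**Figure D3:**
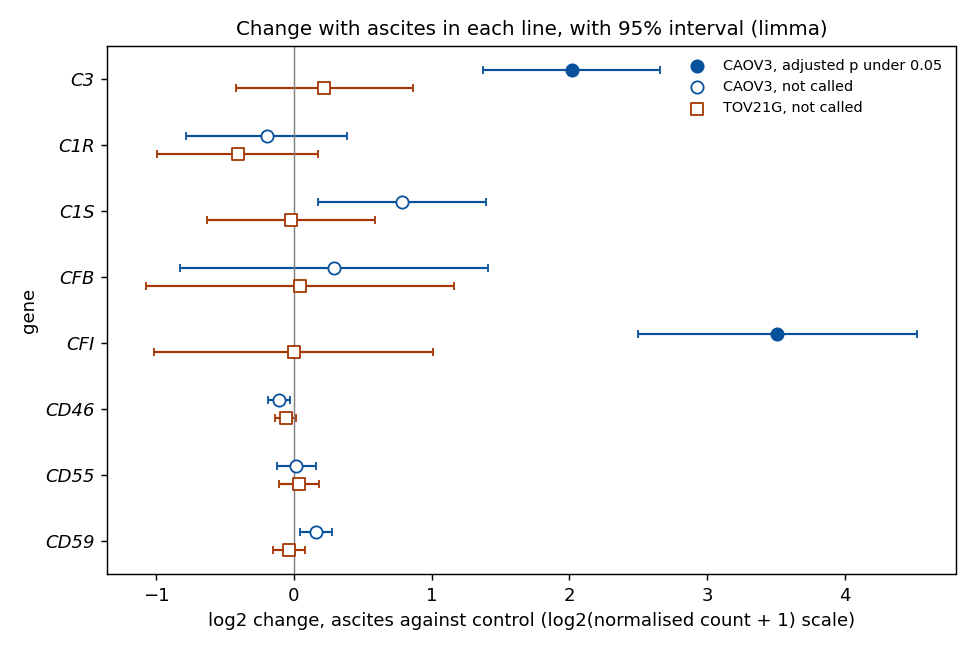
Log2 change between ascites and control libraries of each line for the 8 genes, with 95% intervals from limma; filled symbols are called at an adjusted p under 0.05. In CAOV3 CFI (3.51) and C3 (2.01) are called, and no gene is called in TOV21G.

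The remaining components did not pass the test in CAOV3. C1S had 10.9, 5.11 and 13.3 normalised counts in ascites against 4.54, 6.45 and 3.96 in controls, and the groups overlapped (log2 change 0.78, 95% interval 0.17 to 1.39, adjusted p 0.234). Without CAOV3 ascites replicate 2, its lowest ascites library, C1S was called (log2 change 1.15, adjusted p 0.0305), and over 20 alternatives the adjusted p ran to 0.535. C1R had 17.5, 17.4 and 11.3 in ascites (log2 change -0.20, 95% interval -0.78 to 0.39), within the range set by its controls except for the last library. CFB had 0, 2.04 and 3.07, and 5 reads against 3 give no usable ratio.

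The membrane regulators, in contrast to C3 and CFI, were measured with 2084 or more reads per CAOV3 group and shifted by little. CD59 had 7512, 7502 and 7302 normalised counts in CAOV3 ascites libraries, all above the controls at 6423 to 6789, a difference of 11.95%. It was not called (log2 change 0.16, 95% interval 0.05 to 0.28, adjusted p 0.196). The edgeR quasi-likelihood test on the reads of CAOV3 alone did call it (adjusted p 0.00123), where 3.57% of all tested genes were called higher; over 20 alternatives the adjusted p ran from 0.00123 to 0.418. CD46 had 3256, 3254 and 3214, all under the controls at 3388 to 3628 (log2 change -0.11, 95% interval -0.19 to -0.03, adjusted p 0.2). CD55 had 746, 759 and 738 against 719.5 to 763 and overlapped them (log2 change 0.02, 95% interval -0.12 to 0.16, adjusted p 0.96). Besides CFI, groups without overlap were seen at C3, CD59 and CD46, which is 3 of the other 7 genes, where 24.2% of all tested genes had none in this line.

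In TOV21G none of the 8 genes was called by limma, where 0.409% of all tested genes were. At an unadjusted p under 0.05 the count among the 8 was also 0, where 9.17% of all tested genes passed. The edgeR and DESeq2 tests on the recovered reads each called 1 gene, C3. C3 had 6219, 6186 and 5674 normalised counts in ascites against 5148, 4976 and 5386 in controls. All ascites libraries were above all controls, as for 4.16% of tested genes, and the means differed by 16.6%. In the fit over both lines the log2 change was 0.22 with a standard error of 0.30 (adjusted p 0.84), a spread shared with the CAOV3 libraries, in which C3 had 10 reads over the controls. The edgeR test over all libraries gave an adjusted p of 0.0158 (0.290% of tested genes called higher), and DESeq2 0.00829 (0.373% called higher). On TOV21G alone edgeR gave 0.111 and limma 0.529, and over 20 alternatives the adjusted p ran from 0.00829 to 1. Beside it, the summed value of the 3 listed leukocyte markers was 12.6 to 13.5 normalised counts in TOV21G controls and 15.2 to 22.1 in ascites, with LYZ at 0 in all 6 libraries. The 4 listed fibroblast markers summed to 12548 to 13084 in TOV21G controls and 11259 to 11694 in ascites, and the sums of the other marker lists overlapped between the groups. Most of the fibroblast sum was COL1A2, with means of 10854 in controls and 9661 in ascites. It was already high in untreated cells, so the sum is no measure of added fibroblasts. No single marker was called in TOV21G, and the part of such cells in the C3 values was not tested.

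The other genes of TOV21G overlapped between groups. CFI had 0 in all 3 ascites libraries as in the controls, which allows up to 0.868 normalised counts. C1S had 135, 155 and 132 in ascites (log2 change -0.02, 95% interval -0.63 to 0.59), close to its controls at 134 to 158. C1R had 34.8, 31.9 and 24.2 (log2 change -0.41, 95% interval -0.99 to 0.18), and CFB 21.5, 23.0 and 17.0 (log2 change 0.04, 95% interval -1.07 to 1.16). CD46 had 3756, 3897 and 3691, CD55 127, 139 and 125, and CD59 2737, 2865 and 2660. Their log2 changes were -0.06, 0.04 and -0.04, with 95% intervals that lay between -0.15 and 0.18.

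The responses of the lines were compared directly by the difference between their log2 changes, TOV21G minus CAOV3. Of the 8 genes 1 was called, CFI, where 0.545% of all tested genes were (0.307% lower). CFI was testable only because it was high in CAOV3 ascites, which fixed the direction of its difference, so nothing is read from this count. Its difference was -3.51 (SE 0.66, adjusted p 0.036), and it rests on 0 reads in all 6 TOV21G libraries, so its size depends on the pseudocount. It was called in 5 of 17 alternatives (adjusted p 0.00231 to 1.00), and edgeR gave 1.00. Leaving out any library other than CAOV3 control replicate 1 or 3 ended the call. C3 had a difference of -1.79 (SE 0.42, adjusted p 0.107), which was called by edgeR (adjusted p 0.0225), by DESeq2 (0.0161), with a pseudocount of 5 in limma (0.039) and without CAOV3 control replicate 2 (0.0117), and over 18 alternatives the adjusted p ran to 0.24. Those alternatives called 0.431%, 0.926% and 0.358% of tested genes lower for edgeR, DESeq2 and the pseudocount of 5. For CD46, CD55 and CD59 the differences were 0.05, 0.02 and -0.20, and none was called.

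In the wider complement list no further gene was called in either ascites comparison. Of its 23 tested genes, 2 were higher in CAOV3 (C3 and CFI), where 0.636% of all tested genes were called higher. CFI could enter the test only by being higher there, so only C3 can be set beside that share. None was called in either direction in TOV21G, where 0.409% of all tested genes were, and none was called lower in CAOV3. The genes of transcription factors known to act on complement promoters were followed beside this list. In CAOV3 3 of 6 were called higher and none lower, where 0.636% of all tested genes were called higher; the list was chosen with earlier results of these data known, so the count supports nothing further. STAT3, which carries the interleukin-6 signal, had 1809, 1757 and 1852 normalised counts in controls and 2377, 2389 and 2525 in ascites (log2 change 0.43, SE 0.04, adjusted p 0.000175). IRF1, an interferon-induced activator, had 499, 549 and 573 against 802, 759 and 780 (log2 change 0.53, SE 0.07, adjusted p 0.000859). CEBPD, an acute-phase activator, had 89.7, 109 and 100 against 159, 161 and 171 (log2 change 0.71, SE 0.09, adjusted p 0.00063). In each of these the ascites libraries were all above the controls.

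**Figure D4:**
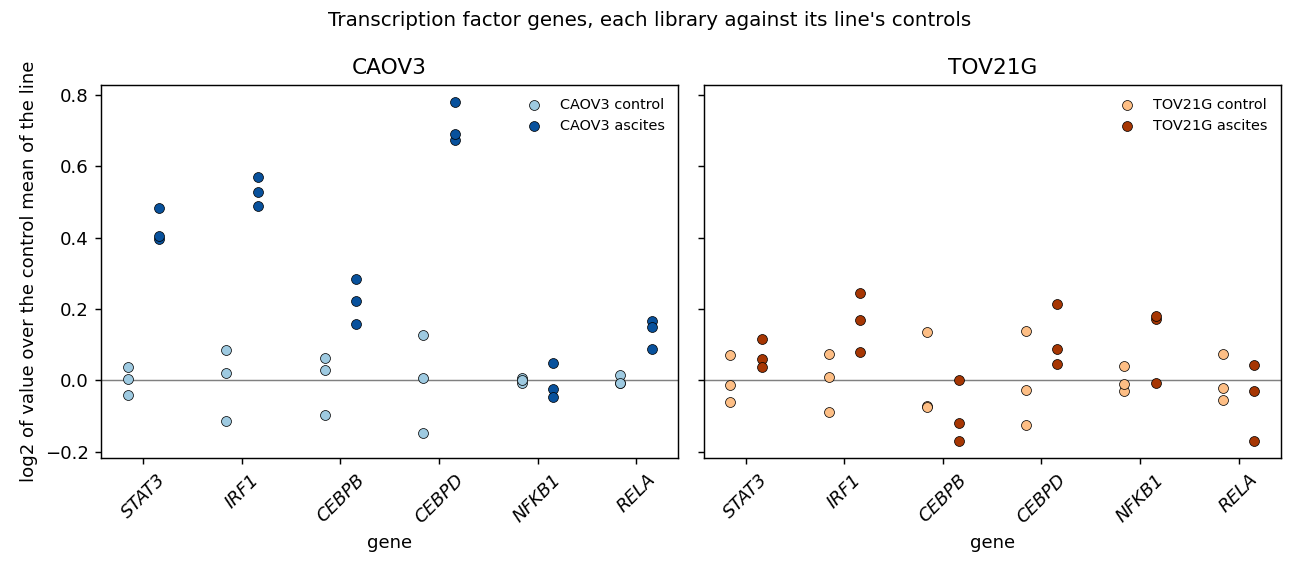
Each library's value over the mean of its line's controls, on a log2 scale, for 6 transcription factor genes in CAOV3 (left) and TOV21G (right), with control and ascites libraries side by side. STAT3, IRF1 and CEBPD lie above the controls in the 3 CAOV3 ascites libraries, and no factor was called in TOV21G.

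The other 3 factors, CEBPB, NFKB1 and RELA, did not pass the limma test in CAOV3, with log2 changes of 0.22, -0.01 and 0.13. In TOV21G none of the 6 was called, and their log2 changes ran from -0.09 to 0.17. STAT3 differed in response between the lines (log2 difference -0.36, SE 0.06, adjusted p 0.021), but over 18 alternatives the adjusted p ran from 7.5e-05 to 0.182 and was under 0.05 in 10. The call was lost without any 1 of CAOV3 control replicates 1 and 2, CAOV3 ascites replicates 1 and 3, TOV21G control replicate 3 and TOV21G ascites replicates 1 and 3, with a highest adjusted p of 0.0764. CEBPD missed the threshold for this difference (-0.59, adjusted p 0.0512) and was called in 7 of 18 alternatives (0.0101 to 0.278). The untreated TOV21G cells had 4.17 times the STAT3 and 13.3 times the CEBPD of untreated CAOV3 cells. Whether these factors have a part in the C3 and CFI values was not tested.

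Markers of other cells that ascites could bring were read beside the CAOV3 result. Of 10 leukocyte markers 3 were listed (LYZ, CD79A and CD14), and their summed value was 194 to 214 normalised counts in CAOV3 controls and 172 to 223 in ascites. All 3 hepatocyte markers (ALB, APOA1 and TTR) were listed, with sums of 47.7 to 68.3 and 41.6 to 46.04. For 4 of 5 mesothelial markers the sums were 62.4 to 76.2 and 47.0 to 68.5, and for 4 of 5 fibroblast markers 4217 to 4917 and 3812 to 4010. Most of the fibroblast sum was LUM, with means of 4196 in controls and 3647 in ascites. LUM was already high in untreated cells, so that sum is no measure of added fibroblasts. The single endothelial marker listed had 8.61 to 10.2 and 5.11 to 11.3, and the 3 erythroid markers are not analysed here. None of these sums was higher throughout in the ascites libraries, and those of hepatocyte and fibroblast markers were lower throughout. COL1A2 was called lower (log2 change -1.43, limma, adjusted p 0.00461) at under 3 normalised counts in every CAOV3 library. The 6 epithelial markers summed to 153270 to 154113 in controls and 176985 to 187539 in ascites, and KRT8 and KRT18 among them were called higher. CDH1 had 389 to 455 in controls and 266 to 281 in ascites and was not called (log2 change -0.64, adjusted p 0.438). The spread in that fit was shared with the TOV21G libraries, where CDH1 was at 6.29 to 17.3. The part of cell composition in the C3 and CFI changes was not tested.

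The genes whose pattern was most like that of C3 were found by Pearson correlation over the 12 libraries, each centred on the controls of its line, among 11165 genes with a mean of at least 50 in both lines. They were APOL1 (r = 0.97), PARP9 (0.95), DNAJC2 (0.95), STAT5B (0.95) and FGA (0.94). Their log2 changes with ascites were 1.21, 0.66, 0.18, 0.10 and 3.06 in CAOV3 and between -0.01 and 0.02 in TOV21G. C3 itself was below that mean in CAOV3, with 10 control and 45 ascites reads, so its pattern there rests on few reads. The libraries are shared between all of these genes, and the ranking describes likeness only.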

How the data were processed

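The 12 RNA sequencing libraries form 4 groups of 3. The authors deposited 1 signal per gene and library, a normalised count. Trim Galore, cutadapt, STAR, HTSeq and DESeq are named, with no role or version, per the submitters' processing notes; build, annotation, strandedness and batches are not given in the sources used here. In each library 100% of values were whole multiples of 1 step within 0.01 reads, so whole reads were recovered (26697609 to 34491304 per library); intervals from reads cover counting error only.

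Genes with a value of at least 10 in at least 3 libraries (17616) entered 1 limma 3.58.1 fit in R 4.3.3 (trend, two-sided, Benjamini-Hochberg) on log2(value + 1), which understates changes of low genes. On recovered reads, edgeR 4.0.16 called 202 higher and 309 lower genes in CAOV3, 51 and 63 in TOV21G. The fit was tested on simulated data with changes placed in CAOV3 ascites only. The limit on false calls covered genes with a CAOV3 mean of at least 10, not lower ones. Lengths and positions are from GENCODE 29; symbols were matched for 19223 of 19251 identifiers. Replicate numbers did not pair samples (correlations -0.07 to 0.06 in CAOV3, -0.42 to 0.07 in TOV21G). In TOV21G some libraries of different number did correlate. Control 1 was at 0.46 with ascites 2 and -0.34 with ascites 3, and control 2 at 0.32 with ascites 3. The block on replicate number does not model this. Some genes of the lists are not reported here. Members, lists and motifs were chosen with earlier results of these data known. Named were all members, called genes of the wider list, the 5 largest called line differences in each direction at a mean of at least 50, and 5 genes most like C3. Alternatives changed the pseudocount, filter, scaling, tool, libraries fitted and block.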

Additional observations from a re-analysis of the deposited data

Results flagged for a closer look

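The difference in response to ascites between the lines passed the threshold at CFI and STAT3, and neither call held in all alternatives. The CFI response was lower in TOV21G than in CAOV3 by -3.51 on the log2 scale (limma, adjusted p 0.036), with 0 reads in all TOV21G libraries. CFI could be tested only through the CAOV3 ascites libraries, where it is high, and the difference was called in 5 of 17 alternatives (adjusted p 0.00231 to 1.00). The STAT3 response differed by -0.36 (limma, adjusted p 0.021), with log2 changes of 0.43 in CAOV3 and 0.07 in TOV21G, and was called in 10 of 18 alternatives (adjusted p 7.5e-05 to 0.182). Groups of 3 libraries are too small for the check of single outlying samples, which was not run.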

How the results depend on the processing

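In CAOV3 the direction of CFI was fixed by how it entered the test. The directions of CFI and C3 in that line held in each alternative that gave a value. Their calls were lost with CAOV3 fitted alone, at log2 changes of 3.51 and 2.01 (adjusted p 0.0632 and 0.0961), so that 0 members were called there. DESeq2 called 1 member in CAOV3 because its adjusted p for CFI was not given. In TOV21G edgeR and DESeq2 each called 1 member higher, C3, at 0.25 and 0.22. The C3 difference in response became called with a pseudocount of 5 (-1.08, which made 2 members), with edgeR (-1.86) and with DESeq2 (-1.92). The CFI difference was not called by edgeR (-3.71) or with the replicate block (-3.51, adjusted p 0.145, which left 0 members). The CFI line difference was not called with a pseudocount of 5 (-0.40), with the controls fitted alone (-1.17) or with edgeR on the controls alone (-3.88). CD59 in CAOV3 became called with edgeR on that line alone (0.17). That last alternative, edgeR on the groups compared only, was chosen after seeing the data. The cause of these shifts was not tested.

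Without 1 library, C3 had differences in response of -2.06 to -1.31, CFI of -4.16 to -2.92, and the CFI line difference was -1.76 to -0.53. C1S in CAOV3 was 0.54 to 1.15, and 0 to 1 members were called lower for the difference. Over all genes, higher and lower calls without 1 library were 73 to 128 and 97 to 217 in CAOV3, 8 to 47 and 16 to 89 in TOV21G, and 17 to 49 and 23 to 97 for the difference.

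Over all genes in CAOV3 the main counts were 112 higher and 193 lower. TMM scaling gave 182 higher, edgeR 202 and 309, DESeq2 188 and 319, and edgeR on the line alone 629 and 748. In TOV21G the main counts were 25 and 47, TMM gave 38 higher, edgeR 51 higher, DESeq2 53 and 98, limma on the line alone 6 and 2, and edgeR on the line alone 14 lower. For the difference the main counts were 42 and 54, TMM gave 68 and 83, edgeR 72 higher, and DESeq2 88 and 122. The replicate block gave 49 and 67 in CAOV3, 5 and 8 in TOV21G, and 1 and 8 for the difference. Same-numbered libraries did not deviate together, so the block tests a shared number only. CFB in CAOV3 rests on 8 reads over 6 libraries, so only a large change could be seen there.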
